A study of Mus musculus with 16 samples.

Results

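The 10 genes described here carry or restrain the insulin signal from the cell surface to the FoxO transcription factors in mouse liver. They are Insr, Irs1, Irs2, Grb14, Pik3r1, Akt1, Akt2, Foxo1, Foxo3 and Sesn1, chosen by gene symbol for their role. Earlier results of these data were known when they were chosen. All 10 were found once among the 78317 genes of the expression tables, and all 10 passed the filter on low counts that left 14781 genes for testing. RNA was sequenced from whole-liver powder of wild-type C57BL/6J mice, an inbred strain, in 4 groups of 4 libraries. The groups were females on a normal diet, females on a high fat diet, males on a normal diet and males on a high fat diet. Mice of all groups arrived at 6 weeks of age and then ate their diet for 10 weeks. The normal diet, LabDiet 5053, took 4.5% of its calories from fat and the high fat diet, Research Diets D12492, took 60%, and the makers differ, so the diets can differ in more than fat. The question of the series was what the fat-rich diet does to the livers of each sex.

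Insulin binds the receptor encoded by Insr, whose kinase phosphorylates the adaptor proteins Irs1 and Irs2. These recruit phosphoinositide 3-kinase, of which Pik3r1 encodes the main regulatory subunit, and the lipid it makes activates the kinases Akt1 and Akt2. Akt phosphorylates FoxO proteins and so keeps them out of the nucleus, while Grb14 binds the active receptor and inhibits its kinase. In the fasted liver nuclear FoxO raises genes of glucose production, and Irs2 and Sesn1 are among the genes it is known to raise. The signal itself runs through protein phosphorylation, which RNA levels do not measure.

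Total expected counts ranged from 22228115 to 41420589 per library, and each of the 10 genes had at least 59 counts in every library. The liver label was checked against hepatocyte markers: 5 of 6 listed markers were matched, and together they reached 50278 to 111599 CPM (counts scaled to library size) in each library. Of 7 pancreas markers the hormone genes Ins1, Ins2 and Gcg had at most 3 counts in every library. The other 4, the digestive enzyme genes Pnlip, Ctrb1, Cpa1 and Cel, were present in male high fat replicates 2 and 3 and female normal diet replicate 4, with Pnlip at 8.18, 3.54 and 1.57 CPM, and absent from male high fat replicates 1 and 4. The 7 summed to at most 18.2 CPM in a library, and their part in the results on these groups was not tested. Male high fat replicates 2 and 3 were more alike than any other pair of a group, with a chi-square statistic of 4.00 per gene against 20.7 for the next closest pair. Results on male high fat livers are therefore also given with these 2 libraries averaged into 1 where that ends a call. Female high fat replicate 1 was the lowest of its group for 8 of the 10 genes, and male high fat replicate 1 for 6. The first of these also held the least RNA of long transcripts. An index of long against short transcripts, described with Insr, was -0.71 there and between -0.43 and 0.43 in the other 15 libraries. Nothing in the labels says that the 4 libraries of a group came from separate animals, so p-values measure the spread between these libraries. In whole liver, a smaller share of a cell type and less RNA per cell cannot be told apart.

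Across the diets, Irs2 RNA rose in the livers of mice on the high fat diet and Foxo1, Foxo3 and Sesn1 RNA fell. These were the 4 of 10 genes called when the diet change was averaged over the sexes, a comparison added after the values had been seen. Of all genes tested, 24.4% were called in that comparison (edgeR's quasi-likelihood test, Benjamini-Hochberg adjusted p under 0.05). Within females 1 of the 10 genes was called, Foxo1, which fell, against 11.5% of all genes. Within males 2 were called, Sesn1 and Foxo3, which both fell, against 11.4% of all genes. The shares of the 10 genes called within each sex were thus near those of the whole transcriptome. In females the 4 libraries of one diet lay wholly on one side of the other diet's for 3 genes (Irs1, Irs2 and Foxo1), against 18.3% of all genes, and in males for 4 (Irs2, Foxo3, Sesn1 and Grb14), against 18.5%. The median log2 change over the 10 genes was -0.12 in females and -0.04 in males, beside medians over all genes tested of 0.00 and 0.01.

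**Figure D1:**
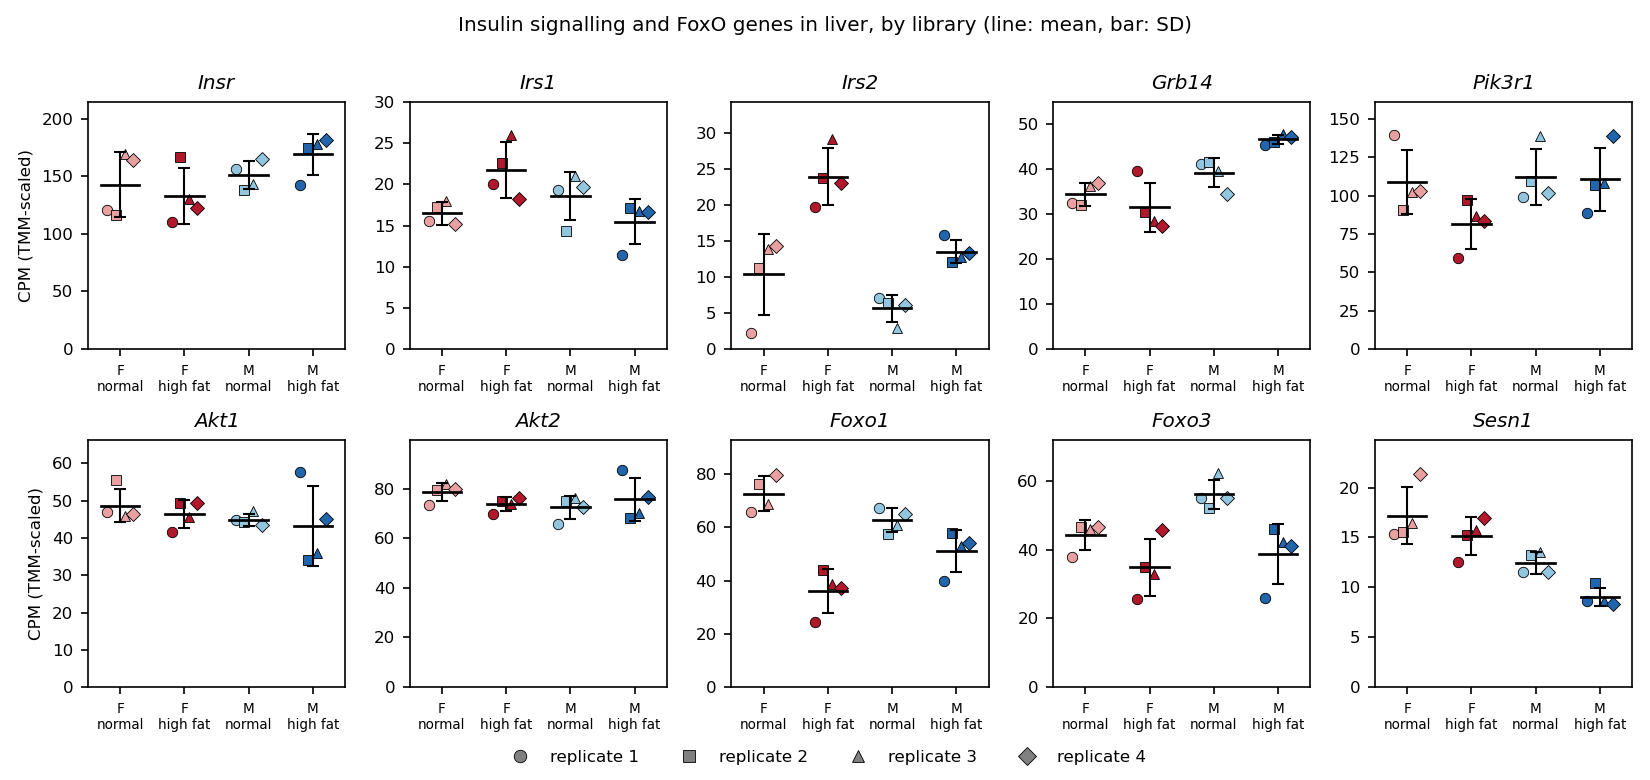
CPM of each of the 10 genes (y axis, scaled by TMM factors) in the 4 libraries of each sex and diet (x axis); marker shape gives the replicate number, lines are means and bars are SD. Within each sex, Irs2 stood higher in every high fat library than in every normal diet library. Foxo1 lay at 24.3 to 43.8 CPM in females on the high fat diet against 65.6 to 79.8 on the normal diet.

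Compared per length, in TPM (which divides counts by transcript length), the means of the 10 genes fell into tiers that kept their order in all 4 groups. Akt2, Grb14, Akt1, Insr and Pik3r1 had group means between 16.2 and 34.6 TPM. Foxo1, Foxo3 and Sesn1 came next, between 4.22 and 10.1 TPM. Irs1 and Irs2 were the least abundant, although in females on the high fat diet the mean of Irs2, 5.26 TPM, came close to the 5.70 TPM of Foxo1 and their ranges overlapped. In females on the normal diet the levels of Grb14 and Akt1 overlapped, as did those of Pik3r1 and Insr, and those of Foxo1, Foxo3 and Sesn1. Grb14 headed the order in males on the high fat diet at 32.4 TPM ± 0.943 (SD, n = 4), where its range overlapped that of Akt2 at 31.6 ± 3.60.

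Insr, the receptor itself, was measured at 121, 116, 169 and 164 CPM in females on the normal diet and at 110, 167, 131 and 123 CPM in females on the high fat diet. In males it stood at 157, 138, 143 and 165 CPM on the normal diet and at 143, 174, 178 and 181 CPM on the high fat diet. The diets overlapped in both sexes. The log2 change with the diet was -0.11 ± 0.14 (SE) in females, with a 95% interval from -0.39 to 0.18, and 0.17 ± 0.14 in males, with an interval from -0.12 to 0.45. Neither was called, and no fit run with another setting called Insr for diet.

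Most of the spread of Insr between libraries ran along with a property of the libraries. For each library the median centred log2 CPM of 1166 genes whose longest transcript has at least 7000 bases was set against that of 3381 genes with at most 2000 bases. This index, added after the data had been seen, had a Pearson correlation of 0.83 with log2 CPM of Insr over the 16 libraries. For Pik3r1 the correlation was 0.56, for Foxo3 0.41, for Grb14 0.34, for Foxo1 0.31 and for Akt2 0.11. It was -0.00 for Irs2, -0.01 for Irs1, -0.24 for Akt1 and -0.37 for Sesn1. The longest transcripts of Insr, Irs1 and Foxo1 have 9355, 9144 and 8665 bases. These values are descriptions over libraries that also differ by group. The index averaged -0.17 and -0.18 in females on the high fat and the normal diet and 0.23 and 0.10 in males. The 3 genes whose levels were most like that of Insr over the libraries were Vps13d, Wdfy3 and Huwe1, with Pearson correlations of 0.96, 0.94 and 0.94. Insr was 0.35 lower on the log2 scale in females than in males on the high fat diet (unadjusted p = 0.0259, edgeR adjusted p = 0.0918). With the index as a covariate this difference was -0.10 (adjusted p = 0.631). It was called in 1 of 19 fits, the one without female high fat replicate 2 (-0.46, adjusted p = 0.0293).

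**Figure D2:**
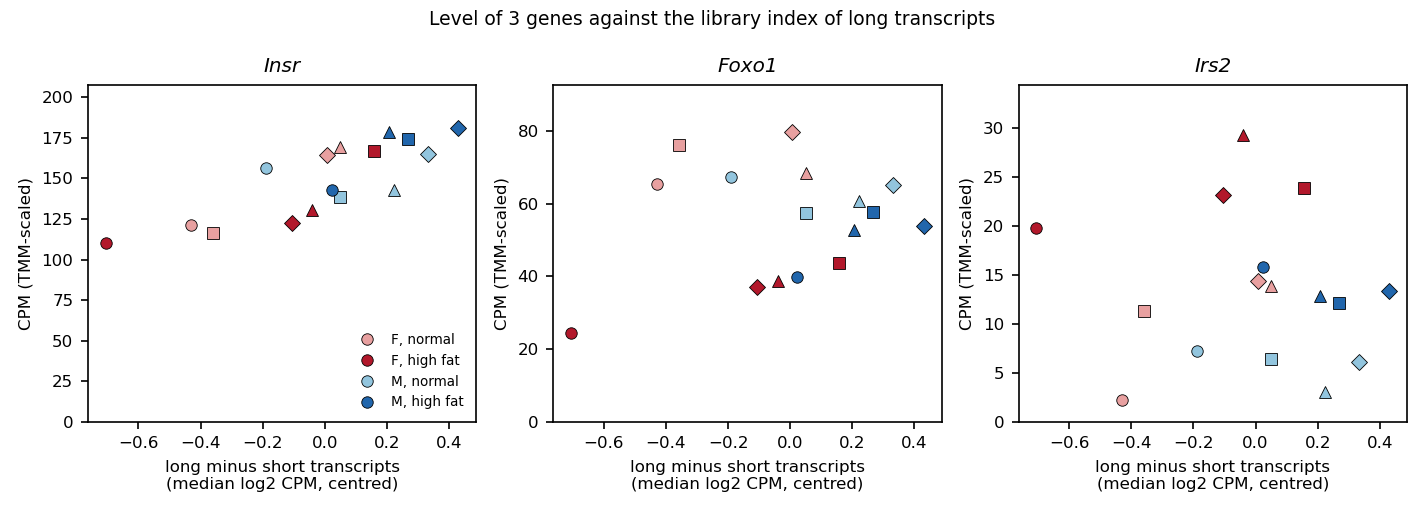
CPM of Insr, Foxo1 and Irs2 (y axes) against the index of long minus short transcripts (x axis, median centred log2 CPM) in the 16 libraries; colour gives the group and marker shape the replicate number. Insr climbed with the index (Pearson correlation 0.83), and the correlations of Foxo1 and Irs2 were 0.31 and -0.00.

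Irs2 showed the largest diet change of the 10 genes. Its level was 2.19, 11.3, 13.9 and 14.3 CPM in females on the normal diet and 19.8, 23.8, 29.2 and 23.1 CPM in females on the high fat diet. In males it was 7.16, 6.42, 2.98 and 6.06 CPM on the normal diet and 15.8, 12.1, 12.9 and 13.4 CPM on the high fat diet. Every library on the high fat diet lay above every library on the normal diet of the same sex, and within the normal diets single libraries lay far below their group. The log2 change was 1.20 ± 0.40 in females (2.30-fold, edgeR adjusted p = 0.0650) and 1.25 ± 0.41 in males (2.38-fold, adjusted p = 0.0644), so neither passed the threshold alone. Averaged over the sexes, the rise was 1.22 ± 0.28 on the log2 scale (2.34-fold, adjusted p = 0.00739) and was called in all 26 fits run, with adjusted p from 0.000146 to 0.0235. The rise in females was also called by DESeq2 (adjusted p = 0.0354), and that in males as well (adjusted p = 0.0307). Without female normal diet replicate 1, the library at 2.19 CPM, the female rise was 0.89 ± 0.21 and was called (adjusted p = 0.0191). The change did not differ detectably between the sexes: the interaction, females minus males, was -0.05 with a 95% interval from -1.15 to 1.05.

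Irs1, the paralogous adaptor, did not rise with Irs2 in both sexes. Females had 15.5, 17.2, 18.0 and 15.1 CPM on the normal diet and 20.1, 22.7, 26.0 and 18.2 CPM on the high fat diet. The female diets did not overlap, but only just, and the log2 change of 0.40 ± 0.15 was not called (adjusted p = 0.0828). On the log2(TPM + 1) scale it was called at an adjusted p of 0.0136. Males had 19.3, 14.4, 21.0 and 19.7 CPM on the normal diet and 11.4, 17.1, 16.8 and 16.6 CPM on the high fat diet, which overlapped, for a log2 change of -0.26 ± 0.15. The difference between these changes was 0.66 ± 0.21 (unadjusted p = 0.00499, adjusted p = 0.169) and was not called.

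Within each library the ratio of Irs2 to Irs1, in TPM, separated the diets in both sexes. It was 0.210, 0.961, 1.13 and 1.39 in females on the normal diet and 1.45, 1.55, 1.65 and 1.87 on the high fat diet. In males it was 0.544, 0.654, 0.207 and 0.451 on the normal diet and 2.03, 1.04, 1.12 and 1.18 on the high fat diet. Irs2 was thus the more abundant adaptor in all 8 libraries on the high fat diet, and in 2 of 8 on the normal diet, both female. Male high fat replicate 1 owed its ratio of 2.03 to a low Irs1 and a high Irs2 alike.

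The promoters of these adaptor genes are shown because they alone among the members with a promoter window held matches to the insulin response element. RefSeq windows (build GRCm38.p6, older than the build of the counts) were supplied for 9 of the 10 genes, Insr being without one, as 15 windows of 250 bases before to 50 bases after a start site. Searched on both strands, the insulin response element CAAAACA occurred in windows of Irs1 and Irs2, and in 6.28% of all 32851 windows. The E-box CACGTG occurred in the same windows and in 7.15% of all. The FoxO motif GTAAACA occurred in a window of Sesn1, 23 bases after the start site, and in 1 of Akt1, and in 3.65% of all windows. Capitals below mark the E-box and the insulin response element, here on the opposite strand as TGTTTTG. In Irs1 an E-box at -115 shares bases with an element at -111, and a further element lies at -32. In Irs2 the E-box at -44 is followed 1 base later by the element at -37. Both sequences run 5′ to 3′ on the gene's strand and end at the base before the start site, at chr1:82291440-82291689 and chr8:11008930-11009179, both minus strand. A match is a description of letters and does not show that a factor binds.
Irs1: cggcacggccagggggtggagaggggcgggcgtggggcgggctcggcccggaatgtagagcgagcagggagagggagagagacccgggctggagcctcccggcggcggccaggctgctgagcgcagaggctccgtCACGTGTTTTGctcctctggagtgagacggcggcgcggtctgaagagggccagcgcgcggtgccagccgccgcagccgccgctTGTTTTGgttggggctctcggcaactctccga
Irs2: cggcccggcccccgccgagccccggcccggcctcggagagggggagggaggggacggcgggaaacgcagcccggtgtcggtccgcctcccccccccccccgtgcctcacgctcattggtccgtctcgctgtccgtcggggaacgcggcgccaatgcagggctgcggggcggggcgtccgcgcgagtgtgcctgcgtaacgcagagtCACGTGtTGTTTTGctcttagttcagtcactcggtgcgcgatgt

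**Figure D3:**
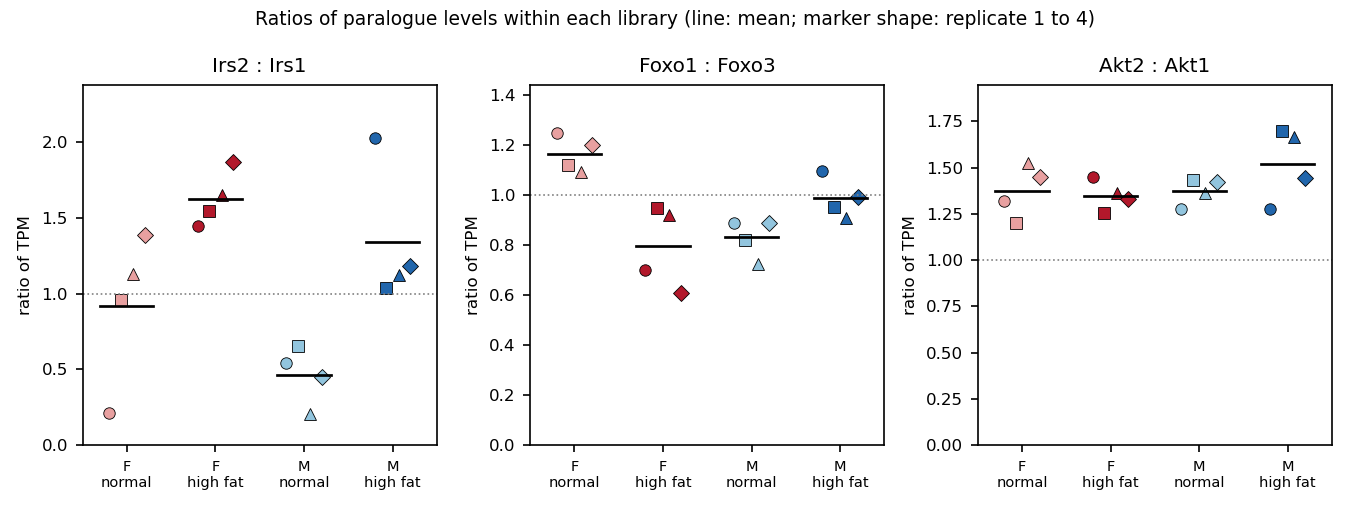
Ratio of TPM within each library (y axes, linear, dotted line at equal levels) for Irs2 to Irs1, Foxo1 to Foxo3 and Akt2 to Akt1, by sex and diet (x axis); lines are means and marker shape is the replicate number. Irs2 to Irs1 lay between 1.04 and 2.03 in all high fat libraries, and Foxo1 to Foxo3 between 1.09 and 1.25 in females on the normal diet.

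Grb14, the inhibitor of the receptor kinase, differed between the sexes on the high fat diet. It was measured at 39.4, 30.5, 28.5 and 27.4 CPM in females and at 45.3, 46.0, 47.7 and 47.0 CPM in males on that diet. No female library reached the male range. The log2 difference, females minus males, was -0.56 ± 0.11 (1.48-fold, adjusted p = 0.00180) and was called in all 19 fits run. On the normal diet females had 32.4, 31.9, 36.2 and 36.8 CPM and males 41.1, 41.4, 39.5 and 34.3 CPM, which overlapped, and the difference of -0.19 ± 0.11 was not called (adjusted p = 0.252). In males every high fat library lay above every normal diet library, by 0.25 ± 0.11 on the log2 scale (adjusted p = 0.140, not called). In females the change was -0.13 ± 0.11, and 0.10 on either log2 TPM scale. The difference of these changes was -0.38 ± 0.15 (unadjusted p = 0.0242, adjusted p = 0.302).

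Pik3r1, which holds and stabilizes the catalytic subunit of phosphoinositide 3-kinase, was measured at 139, 90.9, 102 and 103 CPM in females on the normal diet and at 59.1, 97.1, 86.6 and 83.3 CPM on the high fat diet. The high fat libraries were mostly below, with 1 of them in the normal diet range. The log2 change of -0.42 ± 0.17 was not called (adjusted p = 0.118), but was at the margin of the threshold with the index of long transcripts as a covariate (-0.45, adjusted p = 0.0482). In males the libraries ranged from 98.9 to 139 CPM on the normal diet and from 88.8 to 139 CPM on the high fat diet, for a change of -0.02 ± 0.17 with a 95% interval from -0.35 to 0.31.

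Akt1 and Akt2, the kinases that act on FoxO, were not called in any of the 5 comparisons or in the averaged one, under any setting tried. Akt2, the main Akt isoform of hepatocytes, ranged from 65.9 to 87.5 CPM over the 16 libraries, and Akt1 from 34.1 to 57.7 CPM. The 95% intervals of the log2 diet change ran from -0.27 to 0.09 in females and from -0.12 to 0.24 in males for Akt2, and from -0.33 to 0.19 and from -0.32 to 0.20 for Akt1. The TPM ratio of Akt2 to Akt1 had group means between 1.35 and 1.52. In CPM male high fat replicate 1 held the highest level of both kinases, and in TPM female high fat replicate 4 did.

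Foxo1 fell by 1.01 ± 0.15 on the log2 scale in females on the high fat diet. Its level was 65.6, 76.3, 68.6 and 79.8 CPM on the normal diet and 24.3, 43.8, 38.7 and 37.2 CPM on the high fat diet. The diets did not overlap, and female high fat replicate 1 lay lowest. The change was 2.02-fold (edgeR adjusted p = 0.000382) and was called in all 18 fits run. Without female high fat replicate 1 and male high fat replicate 1 it was -0.86 ± 0.10. In males Foxo1 was measured at 67.4, 57.4, 60.8 and 65.2 CPM on the normal diet and at 39.8, 57.7, 52.8 and 54.0 CPM on the high fat diet. Here the diets overlapped by 1 library, and the change of -0.30 ± 0.15 was not called (adjusted p = 0.204). With the index of long transcripts as a covariate the male change was -0.39 and was called (adjusted p = 0.0355).

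The difference between the diet changes of Foxo1 in females and males was -0.72 ± 0.21 (unadjusted p = 0.00303, adjusted p = 0.135) and was not called. It was called (-0.67 ± 0.13, adjusted p = 0.0204) when replicate 1 of both high fat groups was left out, a setting chosen after the data had been seen. On the high fat diet Foxo1 was 0.50 ± 0.15 lower on the log2 scale in females than in males (adjusted p = 0.0231), with overlapping ranges. That call held in 11 of 19 fits. With the index of long transcripts as a covariate the difference was -0.28 (adjusted p = 0.191), and on the log2 TPM scales it was -0.30 and -0.35 (0.127 and 0.128), without a call. It was also lost with only the 2 groups compared (0.0888), with male high fat replicates 2 and 3 averaged (adjusted p = 0.0568) and without female high fat replicate 1 (0.0528), male high fat replicate 2 (0.0685) or male high fat replicate 4 (0.0633).

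Foxo3, the other FoxO gene with substantial RNA here, fell in males. It was measured at 55.0, 52.2, 62.1 and 54.9 CPM on the normal diet and at 26.0, 45.9, 42.2 and 41.0 CPM on the high fat diet. The diets did not overlap, and male high fat replicate 1 lay far below the others. The log2 change was -0.53 ± 0.17 (1.45-fold, adjusted p = 0.0456), close to the threshold: it was called in 9 of 19 fits and in 1 of the 8 fits that left out 1 male library, the one without male high fat replicate 2, with adjusted p from 0.0365 to 0.114. Without male high fat replicate 1 it was -0.39 (adjusted p = 0.0856). The male call was also lost on both log2 TPM scales (adjusted p = 0.120 on each) and with only the 2 groups compared (0.0501). Females had 37.8, 46.4, 46.1 and 46.7 CPM on the normal diet and 25.7, 35.1, 32.8 and 45.7 CPM on the high fat diet, which overlapped, for a change of -0.35 ± 0.17 (adjusted p = 0.185). The changes in the sexes did not differ detectably, with an interaction of 0.18 and a 95% interval from -0.27 to 0.64. Averaged over the sexes, Foxo3 fell by 0.44 ± 0.12 on the log2 scale (adjusted p = 0.0119), and this was called in 24 of 26 fits, the exceptions being both TPM scales (largest adjusted p 0.0629).

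The balance of the FoxO genes went in different directions in the sexes. The TPM ratio of Foxo1 to Foxo3 was 1.25, 1.12, 1.09 and 1.20 in females on the normal diet and 0.700, 0.950, 0.922 and 0.610 on the high fat diet. In males it was 0.891, 0.821, 0.724 and 0.891 on the normal diet and 1.10, 0.954, 0.911 and 0.992 on the high fat diet. The ratio was thus lower on the high fat diet in all 4 female libraries than in any on the normal diet, and higher in all 4 male ones. This pattern was noticed in the data and is given without a test.

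Sesn1, which encodes sestrin 1, a stress-induced inhibitor of mTORC1, fell in males and differed between the sexes. Males had 11.5, 13.2, 13.5 and 11.5 CPM on the normal diet and 8.66, 10.4, 8.66 and 8.37 CPM on the high fat diet. The diets did not overlap in males, and the log2 change was -0.46 ± 0.13 (1.38-fold, adjusted p = 0.0270). It was called in 13 of 19 fits and in 4 of the 8 that left out 1 male library (adjusted p from 0.0231 to 0.0765). The call was lost without male high fat replicate 3 or 4 and without male normal diet replicate 2 or 3. It was also lost on both log2 TPM scales (largest adjusted p 0.146). In TPM the male diets overlapped, with high fat replicate 2 at 4.90 against 4.82 and 4.87 in normal diet replicates 1 and 4. Females had 15.4, 15.6, 16.5 and 21.4 CPM on the normal diet and 12.5, 15.3, 15.8 and 17.0 CPM on the high fat diet, which overlapped widely, for a change of -0.19 ± 0.13 that was not called and was 0.068 and 0.076 on the log2 TPM scales. Averaged over the sexes, Sesn1 fell by 0.32 ± 0.09 (adjusted p = 0.0150), a call lost on both TPM scales (-0.12 and -0.14, largest adjusted p 0.347).

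Between the sexes, Sesn1 was higher in females on both diets. The log2 difference was 0.47 ± 0.13 on the normal diet (1.38-fold, adjusted p = 0.0183) and 0.74 ± 0.13 on the high fat diet (1.68-fold, adjusted p = 0.000816), and no male library reached the female range of the same diet. The second call held in all 19 fits. The first held in 16 of 18 and was lost without female normal diet replicate 4 and without male normal diet replicate 4. Sesn1 was the 1 gene of the 10 called between the sexes on the normal diet, against 15.7% of all genes. Foxo3 and Sesn1 were the 2 whose sexes did not overlap there, against 22.0% of all genes, Foxo3 being lower in females by 0.34 ± 0.16 without a call. On the high fat diet 4 of the 10 were called between the sexes, against 20.4% of all genes. Sesn1 and Irs1 were higher in females, Irs1 by 0.49 ± 0.15 (adjusted p = 0.0252), and Grb14 and Foxo1 were lower. The call on Irs1 was lost without female high fat replicate 3 (adjusted p = 0.0615) and without male high fat replicate 1 (adjusted p = 0.0525), also with female high fat replicate 1 left out beside it (0.0716). The sexes did not overlap there for Irs1, Irs2, Sesn1 and Grb14, against 22.7% of all genes, Irs2 being higher in females by 0.83 ± 0.39 without a call.

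**Figure D4:**
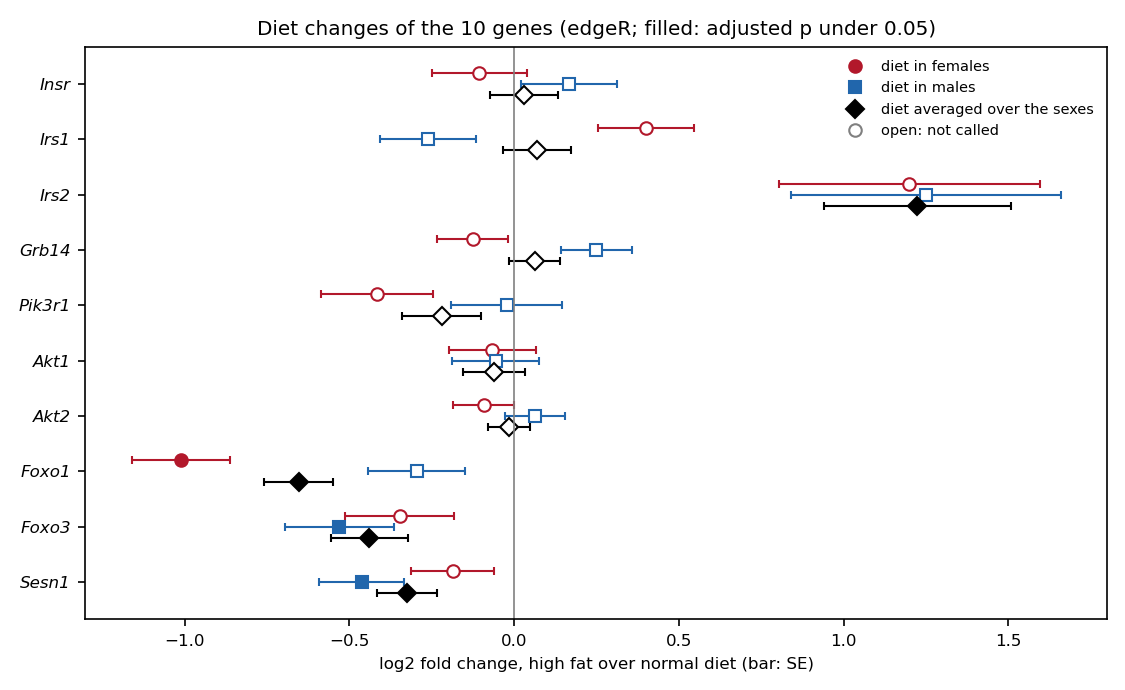
Log2 fold change of the 10 genes (x axis, high fat over normal diet, bars are SE) in females, in males and averaged over the sexes; filled symbols passed an adjusted p of 0.05 in edgeR. Irs2 lay at 1.20 and 1.25 in the sexes, and Foxo1 at -1.01 in females and -0.30 in males.

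None of the 10 genes was called for a difference of the diet change between the sexes, against 0.677% of all genes tested. At an unadjusted p under 0.05 there were 3 (Foxo1, Irs1 and Grb14), and DESeq2 also called 0. Foxo1 passed in females and Foxo3 and Sesn1 in males, but none of these 3 changes is thereby shown to differ between the sexes.

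Other genes of the pathway were taken from a list of 53, of which 51 were tested. In females 4 rose and 5 fell, 9 of 51 against 11.5% of all genes, and in males 0 rose and 2 fell, against 11.4%. The median log2 change of the tested members was -0.05 in females and -0.04 in males. Receptors and adaptors beyond the 10 genes, 6 in number, had no call in any comparison, and insulin clearance genes, 2 in number, had none either. Of 17 tested brakes on the pathway, Trib1, an Akt-binding pseudokinase, rose in females from 37.1 ± 4.61 (SD, n = 4) to 57.4 ± 12.6 CPM (log2 change 0.63 ± 0.13, adjusted p = 0.00635). Ppp2ca, a catalytic subunit of the phosphatase PP2A, fell from 165 ± 5.55 to 135 ± 6.85 CPM (-0.29 ± 0.08, adjusted p = 0.0293), a call made in 8 of 18 fits and lost when any one of 6 of the 8 female libraries was left out. On both log2 TPM scales the change of Ppp2ca was -0.04 (largest adjusted p 0.742). Of 18 kinases and partners below phosphoinositide 3-kinase, Rheb, the GTPase that activates mTORC1, fell in females from 63.1 ± 3.29 to 49.0 ± 2.70 CPM (-0.37 ± 0.08, adjusted p = 0.00867). That change was -0.12 on both log2 TPM scales, without a call (largest adjusted p 0.301), and was not called without the filter on low counts (0.0566). Foxk2, a forkhead factor that Akt signalling draws into the nucleus, fell in both sexes, by 0.57 ± 0.16 on the log2 scale in females (adjusted p = 0.0293) and by 0.64 ± 0.16 in males (adjusted p = 0.0154), where it went from 23.1 ± 3.30 to 14.8 ± 3.97 CPM. The male call was lost on both log2 TPM scales (0.0517 and 0.0523) and with only the 2 groups compared (0.0542).

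Grb7, an adaptor of the family of Grb14, was the 1 gene of the pathway list whose diet change differed between the sexes. It stood at 39.7, 46.1, 46.5 and 45.1 CPM in females on the normal diet and at 61.4, 53.8, 62.0 and 55.1 CPM on the high fat diet. Males had 46.6, 53.6, 44.2 and 48.7 CPM on the normal diet and 34.7, 38.2, 38.3 and 35.1 CPM on the high fat diet. The diets did not overlap in either sex, with the high fat libraries above in females and below in males. The log2 change was 0.39 ± 0.09 in females (adjusted p = 0.00986) and -0.40 ± 0.09 in males (adjusted p = 0.00786, lost on both log2 TPM scales at 0.0547 and 0.0531), and the difference was 0.79 ± 0.13 (adjusted p = 0.00582), called in all 26 fits.

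Between the sexes, 6 genes of the pathway list were called on the normal diet, 2 higher and 4 lower in females, against 15.7% of all genes. On the high fat diet 10 of 51 were called, 2 higher and 8 lower, against 20.4%. Enpp1, whose product inhibits the insulin receptor, was higher in females on the normal diet at 49.3 ± 1.09 against 29.8 ± 1.70 CPM (log2 difference 0.73 ± 0.12, adjusted p = 0.000541). Trib1 was lower there by 0.56 ± 0.13 (adjusted p = 0.00892). Rps6kb1, the S6 kinase that phosphorylates Irs1, was lower in females on both diets, by 0.44 ± 0.13 and 0.68 ± 0.13 (adjusted p = 0.0319 and 0.00215), the first in 9 of 18 fits and the second in all 19. With the index of long transcripts as a covariate these differences were -0.23, without a call, and -0.43 (adjusted p = 0.0908 and 0.00852). Mapkap1, a subunit of mTORC2, was lower in females by 0.32 ± 0.09 and 0.38 ± 0.09, called in 8 of 18 and 16 of 19 fits, and not with the index of long transcripts as a covariate (adjusted p = 0.0510 and 0.0579). Pik3r3, a regulatory subunit like Pik3r1, was lower in females on the high fat diet, at 2.18 ± 0.948 against 5.14 ± 1.08 CPM (log2 difference -1.23 ± 0.30, adjusted p = 0.00918), and with the index as a covariate that call was lost too (-0.76, adjusted p = 0.102).

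Genes that FoxO is known to raise did not move as 1 block with Foxo1 RNA. Of 25 such genes 24 were tested. In females 2 rose and 5 fell, with a median log2 change of -0.27, and in males 1 rose and 4 fell, with a median of 0.13, beside 11.5% and 11.4% of all genes called. Lpin1, a phosphatidate phosphatase and coactivator, fell in both sexes: from 305 ± 95.7 to 31.7 ± 5.89 CPM in females (log2 change -3.27 ± 0.29, adjusted p = 1.20e-05) and from 320 ± 77.7 to 93.4 ± 33.7 CPM in males (-1.78 ± 0.27, adjusted p = 0.000752). Tat, the tyrosine aminotransferase, fell by 1.81 ± 0.19 and 1.42 ± 0.19 on the log2 scale in females and males (adjusted p = 1.63e-05 and 0.000125). Pck1, which encodes the rate-controlling enzyme of gluconeogenesis, fell by 1.34 ± 0.20 and 0.73 ± 0.20 (adjusted p = 0.000384 and 0.0219). Klf15, a transcription factor of amino acid catabolism, fell by 0.65 ± 0.16 and 0.90 ± 0.16 (adjusted p = 0.0152 and 0.00173).

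Gadd45a, a growth arrest gene, was the called gene with the largest rise in females, from 2.10 ± 0.905 to 8.39 ± 3.60 CPM (log2 change 2.01 ± 0.32, adjusted p = 0.000730), beside 0.23 ± 0.33 in males. Pdk4, which restrains glucose oxidation in the fasted state, rose in males from 3.25 ± 0.387 to 20.7 ± 4.93 CPM (2.67 ± 0.52, adjusted p = 0.00548). In females it was measured at 22.7 ± 12.8 CPM on the normal diet and 15.2 ± 8.64 on the high fat diet. Cdkn1a, the cell cycle inhibitor p21, was lower in females than in males on the high fat diet by 1.21 ± 0.27 (adjusted p = 0.00543). None of the 33 tested genes of the combined target list was called for the interaction by edgeR, although 12 had an unadjusted p under 0.05.

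Genes known to be raised by insulin in liver, 9 of 10 of which were tested, had median log2 changes of -0.59 in females and -0.41 in males. In females 3 fell and in males 1 fell, and none rose, against 11.5% and 11.4% of all genes called. Acacb, which makes the malonyl-CoA that restrains fat oxidation, fell in females from 63.4 ± 17.3 to 32.5 ± 6.05 CPM (-0.96 ± 0.21, adjusted p = 0.00867). Fasn, the fatty acid synthase, a gene chosen here after its values were seen, was not called for diet in either sex. Of the combined target list, 7 genes were higher and 0 lower in females than in males on the normal diet, among them Apoc3, Txnip, Pdk4 and Acacb, with log2 differences of 0.88 ± 0.17, 1.50 ± 0.34, 2.80 ± 0.52 and 1.16 ± 0.21, against 15.7% of all genes called. The call on Txnip was lost with only the 2 groups compared (adjusted p = 0.0596). On the high fat diet 3 genes of the combined list were higher and 4 lower in females, against 20.4% of all genes called. Fasn was among the higher ones there.

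**Figure D5:**
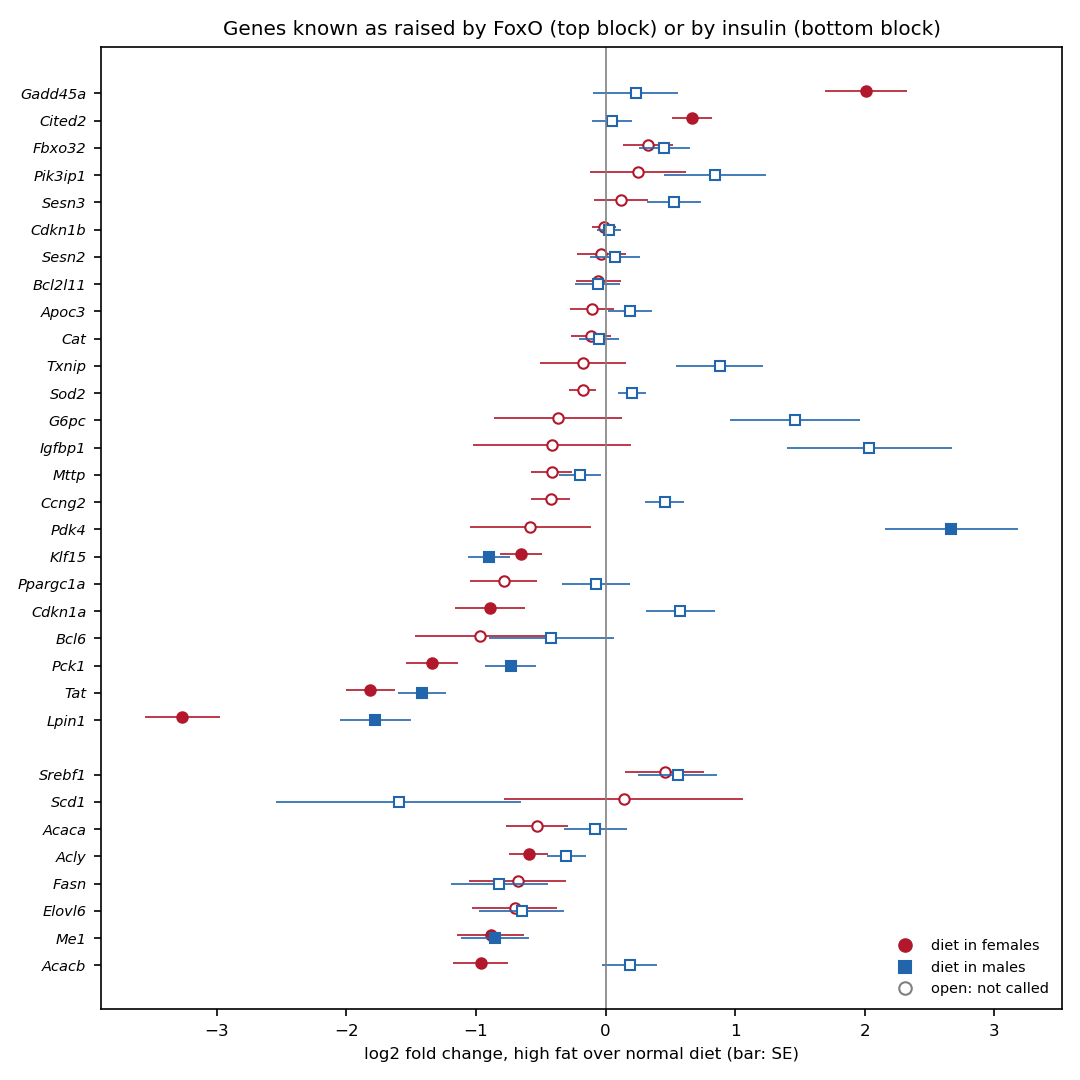
Log2 fold change (x axis, high fat over normal diet, bars are SE) in females and males of tested genes known as raised by FoxO (top block) or by insulin (bottom block), filled where edgeR's adjusted p was under 0.05. Lpin1, Tat, Pck1 and Klf15 lay left of 0 with filled symbols in both sexes, and Pdk4 only in males, to the right at 2.67.

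In 2 normal diet libraries a low Irs2 came with low levels of some of these genes, genes chosen here after their values were seen. Female normal diet replicate 1, where Irs2 was 2.19 CPM against 11.3 to 14.3 in the other 3, had Igfbp1, a fasting-raised binding protein of insulin-like growth factors, at 7.64 CPM against 44.9 to 86.3. Pdk4 stood at 5.78 CPM there against 20.6 to 35.7, and Txnip at 51.6 CPM against 146 to 220. In males on the normal diet Irs2 was lowest in replicate 3, at 2.98 CPM, where Igfbp1 was lowest at 6.35 CPM. On the high fat diet males had Igfbp1 at 46.8, 71.4, 73.2 and 58.3 CPM against 23.6, 19.7, 6.35 and 11.2 CPM on the normal diet, with no overlap and no call (log2 change 2.04 ± 0.64, adjusted p = 0.0582). G6pc, the glucose 6-phosphatase catalytic subunit, likewise stood at 299, 452, 468 and 323 CPM against 268, 92.8, 90.5 and 109 CPM in males, without a call (1.46 ± 0.50, adjusted p = 0.0786). Among the male high fat libraries the order was the opposite, since replicate 1 had the highest Irs2, at 15.8 CPM, and the lowest Igfbp1 and G6pc. In females neither gene separated the diets. The feeding state at collection was not given in the sources used here, and its part in these levels was not tested.

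Clock genes also moved with the diet. Of 13 listed, 12 were tested. In females 2 rose and 5 fell, in males 1 rose and 9 fell, and averaged over the sexes 1 rose and 8 fell. Of all genes, 11.5%, 11.4% and 24.4% were called in these comparisons. Per1 and Per2, repressors of the clock, fell in both sexes, Per1 by 1.75 ± 0.31 and 1.32 ± 0.30 and Per2 by 0.65 ± 0.13 and 0.86 ± 0.13 on the log2 scale in females and males. The interaction was called for 3 clock genes (Nr1d1, Dbp and Cry1) and for none of the 10 genes, against 0.677% of all genes. Female livers held 13.3 ± 4.38 CPM of Nr1d1, a repressor of the clock, on the normal diet and 46.3 ± 8.93 on the high fat diet, a called rise. Male livers went the other way, with 23.6 ± 5.57 and 6.28 ± 0.620 CPM, a called fall. Dbp, a clock output factor, was likewise higher in females on the high fat diet (75.2 ± 22.7 against 46.2 ± 4.54 CPM) and lower in males (17.5 ± 0.919 against 51.9 ± 14.1 CPM), both called. The hour of collection is not given in the sources used here, and the part of clock phase in any change of the 10 genes was not tested.

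Some cell type markers were called for diet as well, where 11.5% of all genes were called in females and 11.4% in males. Hepatocyte markers summed to 99270 to 111599 CPM in females on the normal diet and 75994 to 93414 on the high fat diet, and to 79108 to 88219 and 50278 to 72407 CPM in males, with 1 of 5 tested called lower in females (Hnf4a) and 2 of 5 in males (Hnf4a and Alb). Of 6 markers of Kupffer cells and macrophages, 1 rose in each sex, Cd68, and the list summed to 164 to 226 CPM and 255 to 356 CPM in females on the normal and high fat diet, and to 140 to 210 and 120 to 251 CPM in males. Of 4 stellate cell markers Col1a1 and Des rose in females, where the list summed to 59.6 to 85.5 CPM on the normal and 60.1 to 94.0 CPM on the high fat diet. In males 1 of 4 cholangiocyte markers, Krt19, fell. Adipocyte markers summed to at most 10.9 CPM, and Cfd among them rose in males. Between the sexes on the high fat diet, Clec4f, Vsig4 and Timd4 of the 6 macrophage markers were called higher in females, and of 5 hepatocyte markers Alb was called higher and Hnf4a lower. Called in that comparison were also Cfd, Clec4g, Sox9, Krt19, Epcam, Des, Alas2 and Cd4 of the other lists, against 20.4% of all genes. The sums of endothelial, red blood cell and lymphocyte markers spanned 105 to 160, 210 to 525 and 1.41 to 6.67 CPM over the libraries, and none of these markers was called for diet within a sex. Of skeletal muscle markers, 3 of 4, Acta1, Ckm and Myh4, had at most 3 counts in every library. The part of cell composition in the diet and sex differences of the 10 genes was not tested.

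For each gene called in a comparison of diets within a sex or of the sexes, the 3 genes most like it were taken by Pearson correlation of log2 CPM over the 16 libraries, leaving out genes whose log2 CPM averaged below 1. Foxo1 was most like 0610010F05Rik, Il6ra and Pim3, with correlations of 0.96, 0.94 and 0.94. For Foxo3, Ppp2r5e and Acbd5 were among the 3 (0.89 and 0.87), and Sesn1 was most like Sall1, Serpinc1 and Cenpq (0.91, 0.89 and 0.88). Grb14 was most like Prob1, St3gal3 and Osbpl3 (0.89, 0.87 and 0.86). The likeness of Irs1 was weaker, at 0.76, 0.76 and 0.75 with Abcb11, Fgd5 and Fbxl12. For Irs2, which had no call within a sex, the closest genes were Coil, Depp1 and Cdk5rap2 (0.87, 0.87 and 0.86). These correlations include the differences between the groups and are descriptions of 16 libraries.

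An exon of 3 of the 10 genes overlaps an annotated gene on the other strand in GENCODE M21: Foxo1 with Gm20402, Irs1 with Gm9747 and Irs2 with 9530052E02Rik. Whether counting used the strand is not given in the sources used here, so the counts of these 3 genes may include reads of the overlapping gene.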

How the data were processed

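Mouse liver poly(A) RNA was prepared with the NEBNext Ultra chemistry and read on a NovaSeq sequencer, per the labels' protocols. STAR, RSEM and the build GRCm39 are named in the submitters' processing notes, and versions and the strand setting are not given in the sources used here. The authors deposited RSEM expected counts, of which 4.89% were not whole numbers, and TPM values, which are divided by effective length and scaled within each library. Symbols were matched to 51487 of 78317 identifiers, which held 99.0% of counts.

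Expected counts were rounded, filtered with filterByExpr on the 4 groups and scaled by TMM in edgeR 4.0.16 (R 4.3.3). The robust quasi-likelihood test was fitted to all 16 libraries with 1 mean per group, in 5 comparisons, with two-sided p-values adjusted over 14781 genes and a threshold of 0.05. Standard errors are the log2 fold change over the square root of F. The 95% intervals use these errors with a normal quantile, so they are narrower than limits from the test's own F distribution. CPM values use TMM-scaled library sizes. Alternatives used DESeq2 1.42.0, limma 3.58.1 on log2(TPM + 1) and log2(TPM + 0.1), relative log expression scaling, no filter, only the groups compared, the replicate number as a block, and libraries left out. The averaged diet comparison, the fit without replicate 1 of both high fat groups and the covariate of transcript length (lengths from GENCODE M21, for 95.0% of tested genes) were added after the data had been seen. The edgeR script was tested on simulated counts.

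Named genes are the 10 members and, from the pathway and target lists, at most 4 called genes with the smallest p per list and comparison, others being said to be chosen after their values were seen. The members and lists were chosen with earlier results of these data known. Same-numbered libraries of different groups were only weakly alike. In 24 such pairs, deviations from the group means correlated between -0.16 and 0.18, with 4 above 0.1. These values do not settle whether replicate numbers pair libraries, so the number as a block was used as an alternative. Apart from the promoter windows of Irs1 and Irs2, in build GRCm38.p6, genome coordinates are not given, because the annotation used here is of another build than the counts. Values of 2 genes, 1 of them on the target list, are not reported here.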

Additional observations from a re-analysis of the deposited data

Results flagged for a closer look

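Among 40 sets of 4 libraries (10 genes in 4 groups), 4 had a library far from the other 3 by Dixon's 95% limit, and chance gives about 1 in 20 such sets. Irs1 was 11.4 CPM in male high fat replicate 1 against 16.6 to 17.1 CPM in the others. Akt1 was 55.4 CPM in female normal diet replicate 2 against 45.9 to 46.9 CPM. Foxo3 was 37.8 CPM in female normal diet replicate 1 against 46.1 to 46.7 CPM. Sesn1 was 10.4 CPM in male high fat replicate 2 against 8.37 to 8.66 CPM. Grb7, of the pathway list, had a diet change that differed between the sexes by 0.79 on the log2 scale, up in females and down in males.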

How the results depend on the processing

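Of 1200 values of the 10 genes under alternatives, 1139 kept their side of the threshold without a counted reversal, 33 lost and 20 gained a call, and 8 reversed. Reversals were counted where the value exceeded its SE or was called, so the 1139 include 62 uncalled values within 1 SE of 0 that changed sign. On log2(TPM + 1) and log2(TPM + 0.1), where the median of all genes moved to 0.15 and 0.22 in females and 848 higher and 852 lower calls became 2644 and 282 or 2487 and 276, the female changes of Akt2 (0.15 and 0.16), Sesn1 (0.068 and 0.076) and Grb14 (0.10 and 0.10) and the interaction of Akt2 (0.022 and 0.023) reversed.

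Called members numbered 1 in females, and 2 with DESeq2, without replicate 1 of both high fat groups and with the length covariate, 3 on both TPM scales, and 1 to 2 with 1 library left out. In males 2 became 1 and 0 on the TPM scales and 0 to 2 with 1 library left out. The interaction had 0, and 1 without both replicates 1. Between the sexes on the normal diet 1 became 2 with only the groups compared, without both replicates 1 and with the covariate, and 0 to 2 with 1 library left out; on the high fat diet 4 ranged from 3 to 5. The averaged comparison had 4, and 2 on either TPM scale. Of all genes, 2926 and 2763 (TPM scales) and 2611 (covariate) were called in females, and 975 to 1656 with 1 library left out. The interaction had 341 with DESeq2, 161 with the covariate, 60 with male high fat replicates 2 and 3 averaged, and 57 to 180 with 1 left out. Left-out ranges were 1118 to 1931 in males, 1341 to 2504 between the sexes on the normal diet and 1982 to 3049 on the high fat diet, where 1979 were called with only the groups compared, 2002 without both replicates 1 and 1578 with the covariate. The cause of these shifts was not tested. With the replicate number as a block, members called stayed at 1, 2, 0, 1 and 4 in the 5 comparisons, and in 9 of 24 same-numbered pairs the correlation was above that with any other number. Depth limits Irs2 most, with as few as 59 counts.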
